A study of Homo sapiens with 4 samples.

Results

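TMCO1 RNA was 3.05-fold higher in MDA-MB-231 breast cancer cells after knockdown of the receptor tyrosine kinase AXL, and the genes that sense, release and refill the calcium store of the endoplasmic reticulum (ER) moved far less or not detectably. The genes followed were 10 of the 63677 rows of the deposited table: TMCO1, the ER calcium sensors STIM1 and STIM2, the channel subunits ORAI1, ORAI2 and ORAI3, the release channels ITPR1, ITPR2 and ITPR3, and the pump gene ATP2A2. TMCO1 was chosen by its rise between these same libraries, so its values are a description and carry no test. The other 9 genes were selected by their place in the pathway, without a threshold but with earlier results of these data known. Each is compared by a test run over all genes. All 10 symbols were found, and ORAI1 occurs in 2 rows, of which 1 holds 0 in every library and the other was kept.

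The ER holds calcium at a far higher concentration than the cytosol. SERCA pumps such as the product of ATP2A2 fill it, and the inositol trisphosphate (IP3) receptors encoded by the ITPR genes release it when receptors at the cell surface activate phospholipase C. When the store empties, STIM proteins in the ER membrane sense the fall and open ORAI channels in the plasma membrane, which is called store-operated calcium entry. TMCO1 is an ER membrane protein that has been described as a channel that lets calcium out of an overfilled store, and also as a subunit of the multipass translocon, the machinery that inserts membrane proteins into the ER. In breast cancer cells, store-operated entry through STIM and ORAI proteins is known for its part in cell migration.

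The libraries came from MDA-MB-231, a triple-negative human breast cancer line, transfected with control siRNA (siCt, 2 libraries) or a pooled siRNA targeting AXL (siAXL, 2 libraries). Both groups went through transfection, and the siRNA is the only difference between them that the paper states. A single pool in a single line was used. The labels do not say whether the libraries of a group came from separate cultures, so the p-values measure only the spread between these libraries, which may be technical. Values are normalised counts, that is reads per gene after division by each library's DESeq2 size factor, and the libraries held 39574387 to 44585773 reads. AXL had 29189 and 30617 normalised counts in siCt 1 and siCt 2 against 8658 and 7141 in siAXL 1 and siAXL 2, which left 26.4% of the siCt mean. Of the markers of the line, VIM (86751 to 99296 normalised counts), CD44, FN1 and ZEB1 were present in every library and TWIST1 was at 0, while ESR1 and PGR had at most 3.25, PECAM1 had 0, and PTPRC had at most 16.7. Epithelial markers were present too, with KRT18 at 10077 to 12117 and EPCAM at 565 to 771, and CDH1 (E-cadherin) was low and fell from 90.1 and 94.3 normalised counts in siCt to 36.9 and 22.6 in siAXL (limma adjusted p = 0.00847). ERBB2, low by definition in such lines, had 2949 to 3680 normalised counts.

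TMCO1 (ENSG00000143183), on chromosome 1, had 1250 and 1060 normalised counts in siCt 1 and siCt 2, against 3389 and 3664 in siAXL 1 and siAXL 2. Both siAXL libraries stood far above both siCt libraries, and the gap within each group was small beside the gap between the groups. The mean went from 1155 ± 135 (SD, n = 2) in siCt to 3526 ± 195 (SD, n = 2) in siAXL, a log2 fold change of 1.61 (standard error 0.0906). Leaving out each library in turn gave values from 1.49 to 1.73. Among the 16064 genes that passed the filter for low counts, 13 had a larger fitted rise.

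**Figure D1:**
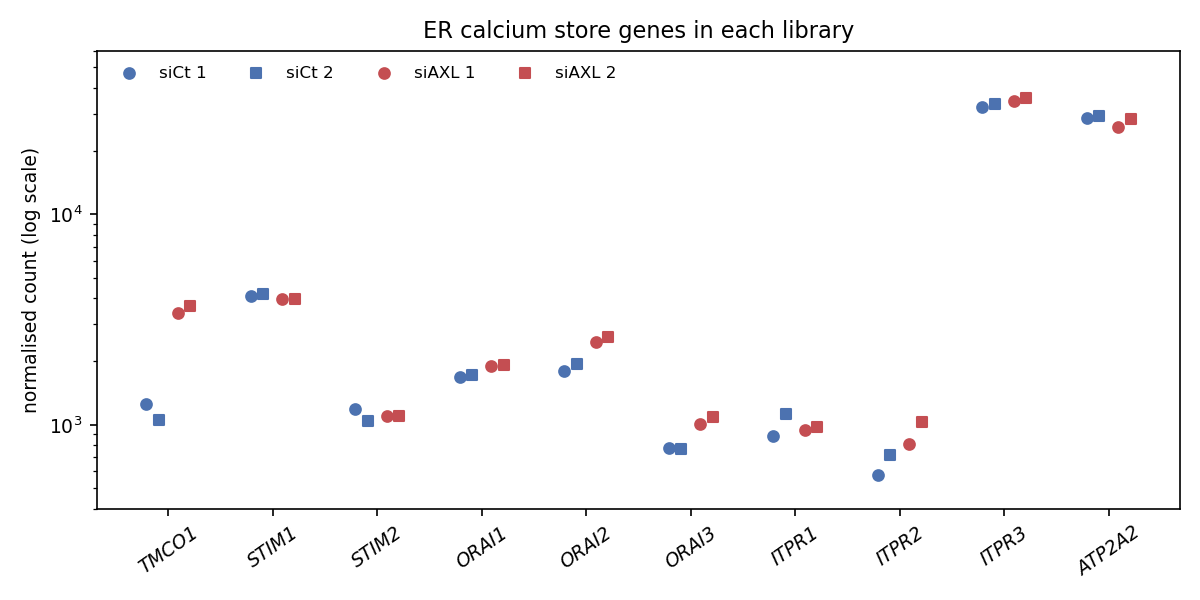
Normalised counts of the 10 genes (log scale) in siCt 1 and 2 (blue) and siAXL 1 and 2 (red), 1 point per library. TMCO1 goes from 1060 and 1250 in siCt to 3389 and 3664 in siAXL, while ITPR2 goes from 576 and 716 to 810 and 1031, and the points of STIM1, STIM2 and ORAI1 lie close together.

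The 3′ untranslated region (UTR) of TMCO1 holds the 7-base word CACATCA, which was picked in earlier work on these same libraries after their values were seen, so counts over its carriers are no independent evidence. The word is shown because small RNAs, siRNAs included, can pair with 3′ UTR sites of this length through their seed. The paper gives no siRNA sequences, so the word was matched here neither to the control siRNA nor to the AXL pool. The stretch around it, read from the transcripts of GENCODE release 29, lies in the last exon at chr1:165727961-165727990 (GRCh38, minus strand), with the word in capitals:

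TMCO1 3′ UTR site: ctagacacacaCACATCAgactggcaactg

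The word starts at base 44 of the UTR and is present in all 5 protein-coding transcripts of TMCO1 that have such a UTR, which run from 485 to 3730 bases. Taking the longest UTR of each gene and the transcript strand only, 0 of the other 9 genes held the word, although 1 of the 5 transcripts of STIM2 did in a shorter UTR. Across 12985 tested genes with a UTR, 1506 (11.6%) held it. Carriers had a median log2 fold change of 0.10, with 400 genes called higher and 88 lower by limma. The 11479 genes without it had a median of -0.0099, with 1267 called higher and 1124 lower. Carriers also had longer UTRs, with a median of 3228 bases against 1365 over all these genes. A higher level in siAXL than in siCt does not say in which group the level changed. The match is a description of the sequence, and its part in the rise of TMCO1 was not tested.

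Of 5 tested genes at up to 1011.7 kb from TMCO1, 1 fell and the others did not pass the threshold. UCK2 (ENSG00000143179), a uridine-cytidine kinase gene on the opposite strand that shares 225 exon bases with TMCO1 (4.03% of the exon length of TMCO1 in GENCODE release 29), fell from 3543 and 3745 normalised counts in siCt to 2973 and 2909 in siAXL. Its change on the log2 scale was -0.31 with a standard error of 0.0583 (limma adjusted p = 0.0145), in the direction opposite to TMCO1. This call was lost without siAXL 1 (adjusted p = 0.0510), without siAXL 2 (0.0657), and with every gene of at least 1 read tested (0.0514). Because it is not stated whether reads were counted by strand, reads in the shared bases cannot be assigned to either gene. The antisense gene AL451074.2, which shares 252 exon bases with TMCO1, had 7.5 reads per library against 2375 for TMCO1.

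On the other side, ALDH9A1 (log2 fold change -0.064, limma adjusted p = 0.487) and MGST3 (-0.083, adjusted p = 0.350) were within 62.5 kb of TMCO1 and did not pass the threshold. On the side of UCK2, FAM78B at 229.7 kb (0.23, limma adjusted p = 0.534) and POGK at 1011.7 kb (0.18, adjusted p = 0.108) did not pass it either. POGK passed it without siCt 1 (adjusted p = 0.0224). Across both sides, UCK2 was the 1 gene of these 5 that was called.

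**Figure D2:**
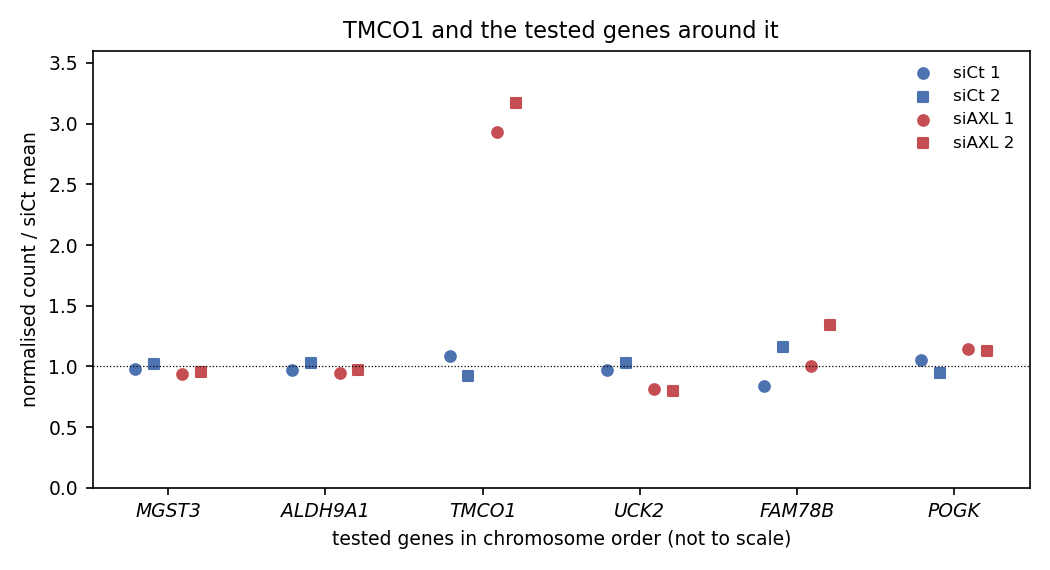
Normalised count of TMCO1 and of 5 tested genes near it in chromosome order (not to scale), divided by the siCt mean of each gene, 1 point per library with siCt in blue and siAXL in red. TMCO1 reaches 3389 and 3664 normalised counts in siAXL, against a siCt mean of 1155, and UCK2 next to it lies below its siCt mean in both siAXL libraries.

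By the Euclidean distance between the 4 centred log2 values, the 5 tested genes closest to TMCO1 across the libraries were PLA2G16 (distance 0.107), FAM115C (0.137), ADAMTS9-AS2 (0.160), CHRDL1 (0.168) and SCD5 (0.172). PLA2G16, a phospholipase gene, had 1477 and 1319 normalised counts in siCt and 3930 and 4115 in siAXL. SCD5, which encodes a stearoyl-CoA desaturase, had 698 and 591 in siCt and 1674 and 1819 in siAXL. With 2 libraries per group, any gene with a rise of the same size and little spread has a small distance, so likeness here rests on 4 points.

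Of the 9 genes other than TMCO1, ORAI2, ORAI3 and ITPR2 rose in siAXL and none fell. The comparison was made with limma on log2(normalised count + 1), a scale that slightly understates the change of genes with few reads, and the threshold for a call was 0.05 for the p adjusted by Benjamini-Hochberg over the 16064 genes tested. The 3 of 9 genes called (33.3%) stand beside 18.7% of all genes tested, and the 3 of 9 called higher beside 10.8% called higher and 7.91% called lower. Scaling by library size alone turned the balance over all genes, from 1735 higher and 1271 lower to 1536 higher and 1745 lower, and left 2 of the 9 genes called. The libraries of the groups did not overlap for 7 of the 9 genes, of which 5 were higher, beside 61.2% of all genes tested.

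The ORAI genes encode the pore of the store-operated channel. ORAI2 (ENSG00000160991) had 1808 and 1942 normalised counts in siCt 1 and siCt 2, against 2484 and 2627 in siAXL 1 and siAXL 2. The siAXL libraries were both above the siCt libraries, and the rise was 1.36-fold (0.45 ± 0.0665 standard error on the log2 scale, limma adjusted p = 0.00680). It was past the threshold in all 13 other settings, with log2 fold changes from 0.40 to 0.50. ORAI2 overlaps ALKBH4 on the opposite strand over 584 exon bases, and ALKBH4 had 501 reads per library against 2227, with a log2 fold change of -0.012 (limma adjusted p = 0.951).

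ORAI3 (ENSG00000175938) had 778 and 764 normalised counts in siCt 1 and 2, and 1007 and 1092 in siAXL 1 and 2. The groups did not overlap, and the rise was also 1.36-fold (0.44 ± 0.0760 standard error on the log2 scale, limma adjusted p = 0.0107). Without siAXL 2 the log2 fold change was 0.39 and the call was lost (adjusted p = 0.0576). In GENCODE release 29, 52.9% of the exon bases of ORAI3 also belong to AC135048.1 on the same strand, which had 10.8 reads per library against 916 for ORAI3. How reads in these shared bases were counted is not known here, so the count of ORAI3 may leave some out.

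ORAI1 (ENSG00000182500), the main pore subunit of store-operated entry in most cells, had 1682 and 1721 normalised counts in siCt and 1895 and 1922 in siAXL. Its libraries did not overlap either, but the difference of 1.12-fold (log2 fold change 0.17, 95% interval 0.025 to 0.31) did not pass the threshold (limma adjusted p = 0.0967). The interval is that of the single gene, without adjustment. The rises fitted for ORAI2 and ORAI3 lie outside it, but their own intervals (0.29 to 0.60 and 0.26 to 0.62) overlap it. A difference between the genes was not tested.

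The STIM genes encode the sensors of the store. STIM1 (ENSG00000167323) had 4091 and 4179 normalised counts in siCt against 3974 and 3943 in siAXL, with a log2 fold change of -0.063 (95% interval -0.19 to 0.063, limma adjusted p = 0.459). STIM2 (ENSG00000109689), which responds to smaller falls of the store, had 1191 and 1042 in siCt against 1099 and 1098 in siAXL (log2 fold change -0.020, 95% interval -0.22 to 0.18, adjusted p = 0.889). The siAXL libraries of STIM1 lay just below those of siCt, and those of STIM2 fell between them. Neither gene was past the threshold in any of the 13 other settings, and the sign of STIM2 turned with siCt 1 left out (0.076).

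The ITPR genes encode the IP3 receptors. ITPR2 (ENSG00000123104) had 576 and 716 normalised counts in siCt 1 and siCt 2, against 810 and 1031 in siAXL 1 and siAXL 2. Both siAXL libraries were above both siCt libraries, although the libraries within each group were spread widely, and the rise was 1.42-fold (0.51 ± 0.144 standard error on the log2 scale, limma adjusted p = 0.04996). This value sits at the threshold. The call was lost in 6 of 13 other settings, among them library size scaling (adjusted p = 0.0607), every gene of at least 1 read (0.161) and the data without siAXL 2, where the log2 fold change was 0.33 (0.175). With reads as the input, edgeR (quasi-likelihood, adjusted p = 0.0477) and DESeq2 (0.0105) also called it.

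ITPR3 (ENSG00000096433) had 32560 and 33546 normalised counts in siCt against 34498 and 35586 in siAXL, a log2 fold change of 0.084 (95% interval -0.051 to 0.22, limma adjusted p = 0.350). ITPR3 shares 1025 exon bases with UQCC2 on the opposite strand, which fell (log2 fold change -0.30, limma adjusted p = 0.0189) and had 1748 reads per library against 34163. The call of UQCC2 was lost without siAXL 1 (adjusted p = 0.0659), without siAXL 2 (0.0923) and with every gene of at least 1 read (0.0541). ITPR1 (ENSG00000150995) had 884 and 1130 normalised counts in siCt against 944 and 977 in siAXL, a log2 fold change of -0.058 (95% interval -0.33 to 0.22, adjusted p = 0.773). The siCt libraries of ITPR1 lay on either side of both siAXL libraries, and the sign of its difference turned with siCt 2 left out (0.12).

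ATP2A2 (ENSG00000174437), which encodes SERCA2, the pump that refills the store, had 28756 and 29382 normalised counts in siCt against 26148 and 28540 in siAXL. The siAXL libraries were lower and differed more from each other than those of siCt, and the log2 fold change of -0.090 (95% interval -0.24 to 0.061) did not pass the threshold (limma adjusted p = 0.375). For the 6 genes that were not called, the intervals ran from -0.33 at the lowest (ITPR1) to 0.31 at the highest (ORAI1) on the log2 scale. They are single-gene intervals without adjustment from 2 libraries per group, so larger changes are not excluded.

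**Figure D3:**
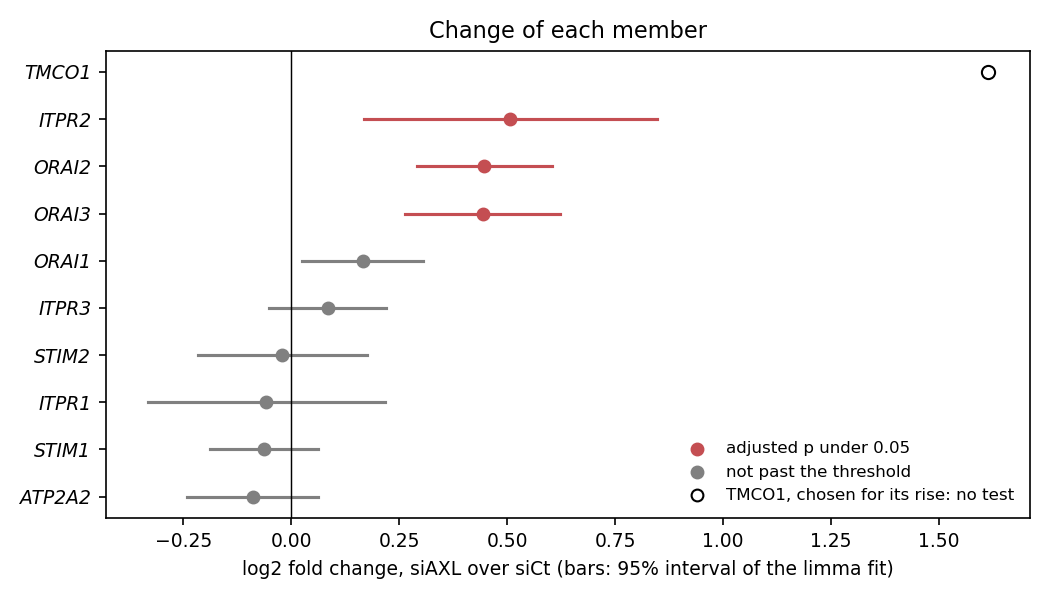
Log2 fold change of each gene in siAXL over siCt, with the unadjusted 95% interval of the limma fit, in red where the adjusted p is under 0.05 and in gray otherwise. ITPR2, ORAI2 and ORAI3 lie between 0.44 and 0.51, the 6 other tested genes between -0.090 and 0.17, and TMCO1 (open circle, no test because it was chosen for its rise) at 1.61.

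Levels can be set between genes only per length, so reads were divided by the merged exon length of the gene and by the total reads of the library (RPKM, the usual per-length unit). The exon lengths are those of GENCODE release 29, matched by identifier for 9 genes and by symbol for ORAI1, and the levels hang on these lengths. Merging takes in every annotated exon, which gave ITPR1 32454 bases against 12750 for ITPR2 and 9870 for ITPR3. ITPR1 had more normalised counts than ITPR2 in siCt (mean 1007 against 646), so its place below ITPR2 and its family share come from this length. The length of ORAI3 includes the bases it shares with AC135048.1. In siCt the order of mean RPKM was ITPR3 (78.5), ATP2A2 (49.6), ORAI1 (17.6), STIM1 (13.6), ORAI3 (6.83), TMCO1 (4.85), ORAI2 (3.96), STIM2 (3.79), ITPR2 (1.19) and ITPR1 (0.727). Only ORAI2 and STIM2 had overlapping libraries among the neighbours in this order. In siAXL TMCO1 stood at 14.0 and 15.0 RPKM, above STIM1 at 12.9 and 12.6, so it moved from the sixth place to the fourth, while the order of the other genes was the same.

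The families differed in how evenly their members shared the RNA. ITPR3 made up 97.9% and 97.4% of the summed RPKM of the 3 ITPR genes in siCt 1 and 2, and 97.4% and 97.0% in siAXL 1 and 2, so that the rise of ITPR2 bore on 1.34% to 2.18% of the family. STIM1 held 76.9% and 79.5% of the STIM sum in siCt and 77.8% and 77.7% in siAXL. Among the ORAI genes the share of ORAI1 was 61.9% and 62.1% in siCt against 58.1% and 56.7% in siAXL, that of ORAI2 13.6% and 14.3% against 15.5% and 15.8%, and that of ORAI3 24.5% and 23.6% against 26.4% and 27.5%. All 3 ORAI shares separated the groups, those of STIM1 overlapped, and no test was run on shares. The summed RPKM of the ORAI genes went from 28.3 and 28.6 in siCt to 33.3 and 34.2 in siAXL.

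**Figure D4:**
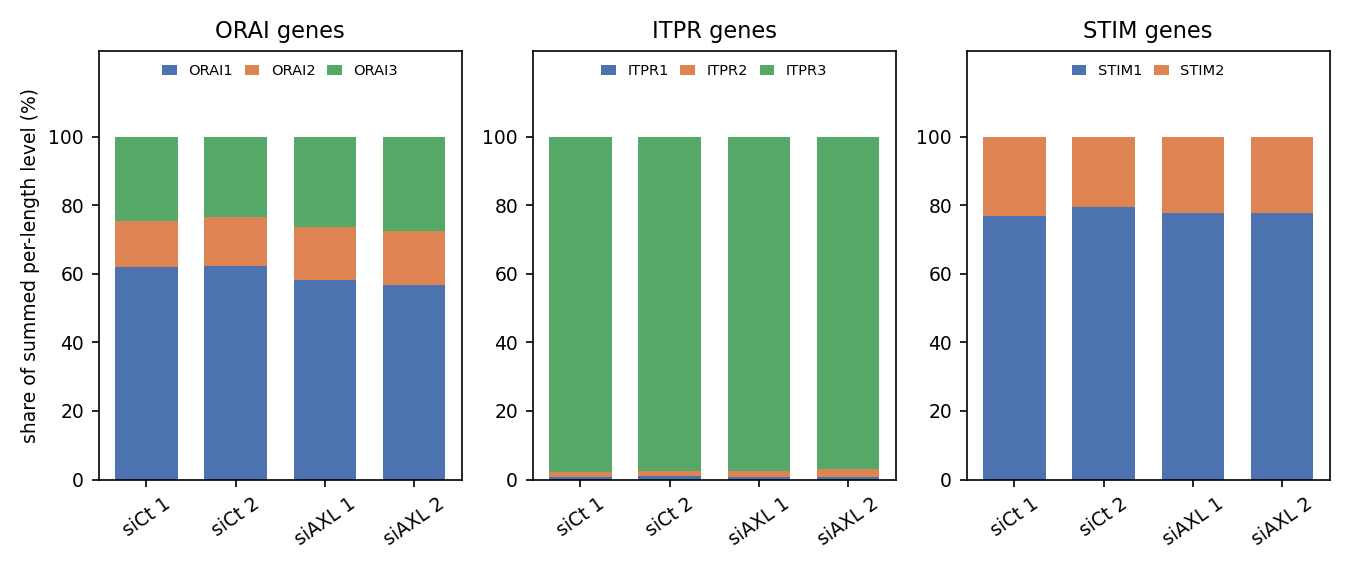
Share (%) of each gene in the summed RPKM of its family, for the ORAI, ITPR and STIM genes in each of the 4 libraries. ITPR3 holds at least 97.0% of its family throughout, and the ORAI1 share is 61.9% and 62.1% in siCt and 58.1% and 56.7% in siAXL.

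The other genes of the pathway were taken from 8 lists compiled by hand with earlier results of these data known, so their shares are a description. The lists held 124 genes in all, of which 109 were tested. In siAXL, 32 of these rose and 5 fell, and 72 did not pass the threshold, so that 33.9% were called beside 18.7% of all genes tested (10.8% higher and 7.91% lower). The counts of the single lists that follow stand beside these same shares, and no list was tested against other genes or lists. The median log2 fold change was 0.16, against -0.0022 over all genes tested. The count fell to 22 called without siAXL 1 and to 18 without siAXL 2.

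The luminal calcium-binding proteins, which bind calcium in the ER and later secretory compartments, include chaperones and disulfide isomerases that also fold proteins, such as PDIA3, and EF-hand proteins such as the reticulocalbins. Of 14 tested genes 11 rose (78.6%, beside 10.8% of all genes) and 0 fell, with a median log2 fold change of 0.34, and the remaining 3 lay between 0.11 and 0.20. PDIA3, the disulfide isomerase ERp57, had 13678 and 14126 normalised counts in siCt and 17831 and 18932 in siAXL (log2 fold change 0.40, limma adjusted p = 0.00611). RCN3, a reticulocalbin, had 219 and 236 in siCt and 291 and 313 in siAXL (0.41, adjusted p = 0.0430). RCN3 lost its call in DESeq2 (adjusted p = 0.119), with library size scaling (0.0505), with every gene of at least 1 read (0.0934), without siCt 1 (0.0935), without siAXL 1 (0.112) or without siAXL 2 (0.197). Without siAXL 2 the list had 6 genes that rose in place of 11.

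Of 15 tested regulators of store-operated entry, 8 rose (53.3%, beside 10.8% of all genes) and 0 fell, with a median log2 fold change of 0.26. SARAF (listed as TMEM66), which inactivates store-operated entry, rose from 6995 and 7393 normalised counts to 9278 and 9587 (log2 fold change 0.39, limma adjusted p = 0.00622). TRPC1, a cation channel gene, rose from 384 and 361 to 577 and 548 (0.60, adjusted p = 0.00714). Both stayed past the threshold in all 13 other settings. Without siAXL 1, and likewise without siAXL 2, 5 genes of the list rose in place of 8.

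Release channels and pumps beyond the 10 genes had 4 of 10 tested genes higher and 0 lower, with a median of 0.26. TMBIM6, an ER membrane protein linked to a calcium leak, rose from 24349 and 24379 normalised counts to 32605 and 34328 (log2 fold change 0.46, limma adjusted p = 0.00401). PKD2, the polycystin-2 channel, rose from 2009 and 1816 to 2426 and 2375 (0.33, adjusted p = 0.0206). PKD2 was not past the threshold without siAXL 1 (adjusted p = 0.0827), without siAXL 2 (0.0581) or with every gene of at least 1 read (0.0699), and the list then had 2, 1 and 1 genes that rose. The ryanodine receptor genes had at most 15.2 normalised counts in any library. The other SERCA genes, looked up after the values were seen, had 41.3 to 57.5 (ATP2A1) and 5.42 to 19.7 (ATP2A3), against 26148 to 29382 for ATP2A2.

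Upstream of the IP3 receptors, 4 of 19 tested genes rose and 1 fell (26.3% called, beside 18.7% of all genes), with a median log2 fold change of 0.17. PLCE1, a phospholipase C, fell from 1788 and 1946 normalised counts to 1139 and 1202 (log2 fold change -0.67, limma adjusted p = 0.00274), in all 13 other settings. The IP3 kinase genes ITPKB (0.52, adjusted p = 0.0296) and ITPKC (0.37, adjusted p = 0.0203) rose. ITPKB lost its call with DESeq2 (adjusted p = 0.100), without siAXL 1 (0.144) and without siAXL 2 (0.0955), ITPKC without siAXL 2 (0.109), and both with every gene of at least 1 read (0.0688 and 0.0624). Without siAXL 2 the list had 0 genes higher and 2 lower.

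The multipass translocon, of which TMCO1 has been described as a subunit, was listed together with the related insertase genes EMC3 and GET1. This list had 1 of 14 tested genes higher and 0 lower, with a median of 0.047. The 1 gene was NOMO1, from 1239 and 1318 normalised counts to 1663 and 1674 (log2 fold change 0.38, limma adjusted p = 0.0107). NOMO1, NOMO2 and NOMO3 are near-identical copies. How reads that match more than 1 copy were counted is not known here, so the counts of these genes may leave some out. RAB5IF (listed as C20orf24), the partner of TMCO1 within this machinery, was named here after its values were seen. It had 1835 and 1770 normalised counts in siCt against 1598 and 1652 in siAXL (-0.15, adjusted p = 0.140).

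The list of calcium extrusion and Golgi pumps had 1 of 6 tested genes higher, TMEM165 (0.20, limma adjusted p = 0.0364). That call was lost without any 1 of the 4 libraries (log2 fold change 0.19 to 0.22) and with every gene of at least 1 read (adjusted p = 0.0824). TMEM165 is not one of the ATP2B or ATP2C pump genes of the list, and none of those was called. The Golgi pump gene ATP2C1 had a log2 fold change of 0.17 (limma adjusted p = 0.0650). For transfer to mitochondria, 0 of 18 genes rose and 2 fell (11.1% called, below the 18.7% of all genes), with a median of -0.039. HSPA9, the chaperone GRP75, fell from 17515 and 18717 normalised counts to 14221 and 14858 (-0.32, adjusted p = 0.0147). VDAC2, a channel of the outer mitochondrial membrane, fell from 5729 and 5721 to 4945 and 4787 (-0.23, adjusted p = 0.0253). HSPA9 lost its call without siAXL 1 (adjusted p = 0.0771), VDAC2 without siCt 2 (0.0559), siAXL 1 (0.0881) or siAXL 2 (0.138), and both with every gene of at least 1 read (0.0547 and 0.0659).

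In the calcineurin and NFAT list, which acts on calcium in the cytosol, 3 of 13 tested genes rose and 2 fell, with a median of 0.051 that turned negative without siCt 1 (-0.019) or siAXL 2 (-0.075). The catalytic subunit gene PPP3CA rose from 4384 and 4369 normalised counts to 5740 and 5996 (log2 fold change 0.42, limma adjusted p = 0.00433), whereas PPP3CB, another catalytic subunit gene, fell from 5735 and 6035 to 5007 and 4840 (-0.26, adjusted p = 0.0236). RCAN2 rose (0.72, adjusted p = 0.0335) from 107 and 80.2 to 147 and 161. The calmodulin gene CALM2 fell from 32482 and 32821 to 27134 and 27206 (-0.27, adjusted p = 0.0187). Without siCt 2, siAXL 1 or siAXL 2, PPP3CB (adjusted p from 0.0736 to 0.115), RCAN2 (0.0726 to 0.118) and CALM2 (0.0786 to 0.100) each lost their call, as they did with every gene of at least 1 read (0.0690, 0.104 and 0.0514). RCAN2 also lost it with DESeq2 (adjusted p = 0.0571).

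**Figure D5:**
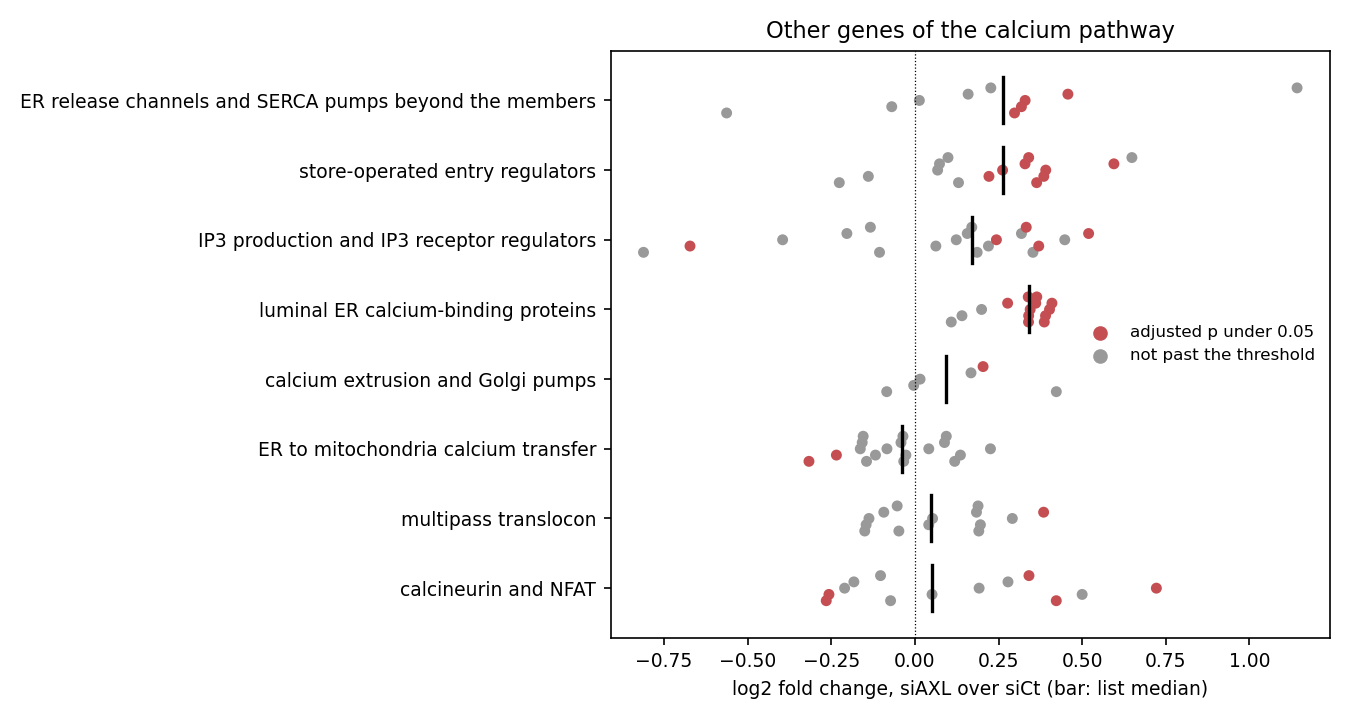
Log2 fold change in siAXL over siCt of the 109 tested genes of the 8 lists, 1 point per gene and a black bar at the median of the list, in red where the limma adjusted p is under 0.05. The luminal list has 11 red points and a median of 0.34, and the mitochondrial list lies around its median of -0.039.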

How the data were processed

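The authors deposited 1 table, with a signal of normalised counts in 4 libraries: reads per gene divided by the DESeq2 size factor. Its columns of the authors' own comparison (fold changes, errors and p-values) were not used, and per-sample columns left unused numbered 0. The submitters' processing notes name CASAVA 1.8, TopHat2 2.0.10, HTSeq 0.5.3, DESeq2 1.4.5 and GRCh37. The strand setting is not given in the sources used here.

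In each library 100% of values were whole multiples of 1 read (tolerance 0.01), so reads were recovered. Genes passing edgeR's filterByExpr on these (16064, leaving out 47613) were tested with limma 3.58.1 (trend) on log2(normalised count + 1) in R 4.3.3, with Benjamini-Hochberg adjustment and no covariate. edgeR 4.0.16 and DESeq2 1.42.0 on the reads were alternatives, and edgeR called 3120 genes. The fit was tested on simulated counts. GENCODE release 29 (GRCh38) gave lengths, overlaps and UTRs by identifier, for 15649 of the tested genes, and no coordinate of the table was used with it.

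The members and lists were chosen with earlier results of these data known. The text names the 10 genes, AXL, UCK2, tested genes near TMCO1 (up to 3 on either side), the 5 genes most like it, and up to 2 called rises and 2 called falls per list. ALKBH4, UQCC2, AL451074.2 and AC135048.1 were named because they overlap a member. Some values under these rules are not reported here.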

Additional observations from a re-analysis of the deposited data

How the results depend on the processing

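The 23 named genes called, AXL included, kept their sign in all 13 other settings, and 9 of them were called in each. Of the 11 that were not called, 7 kept their sign, and STIM2, ITPR1, FAM78B and ALKBH4 turned it with 1 library left out. These counts cover only the named genes run through the settings, and CDH1, which was called, and RAB5IF were not among them. Over all genes, 3006 were called, against 1097 with every gene of at least 1 read in any library tested (27108 genes), 1301 to 3900 with each library left out in turn, 3120 with edgeR and 2598 with DESeq2. The share of higher calls was 57.7%, and 46.8% with library size scaling. The counts were 1 to 3 of the 9 members with a library left out, the lowest without siAXL 2. Of the pathway genes, 37 were called, 17 with at least 1 read and 18 to 40 with a library left out. The libraries share replicate numbers, but nothing in the labels says that a number marks a shared culture, and with only 2 pairs the correlation of same-numbered deviations (0.27) does not settle it. With the number as a replicate block, 7310 genes, 6 of the 9 members (ORAI1, ITPR3 and ATP2A2 in addition) and 75 pathway genes were called, as was POGK (adjusted p = 0.000384, limma). With 2 libraries per group the spread of a single gene is known poorly.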
